A study of Gallus gallus with 20 samples.

Results

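The citric acid cycle enzymes described here are the 9 genes CS, ACO1, IDH3A, DLD, SUCLG1, SUCLA2, FH, MDH2 and MDH1, chosen by name from the 17108 genes of the deposited tables. They were chosen with earlier results of these data known. Each name matched 1 gene. RNA was sequenced from pectoralis major, the large breast muscle, and from liver of male Ross 708 chickens, a fast-growing broiler strain, at post-hatch day 35. From week 3 to week 5 of age the birds ate either the control diet, which held L-methionine, or the L-methionine-deficient one. The 4 groups were control breast muscle, deficient breast muscle, control liver and deficient liver, with 5 libraries each and 20 in all. The labels give 5 birds per diet, and each library of a tissue was taken as its own bird. On that reading the 5 breast and 5 liver libraries of a diet come from the same 5 birds. Which library belongs to which bird is not stated. Tests between the tissues nevertheless took all 20 libraries as independent, so their p-values do not allow for shared birds.

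The citric acid cycle runs in the mitochondrial matrix, where it oxidises the acetyl group of acetyl-CoA and passes the electrons to the respiratory chain. Its intermediates also leave the matrix, for example as citrate for fatty acid synthesis in the liver or as malate in shuttles that carry reducing equivalents across the inner membrane. ACO1 and MDH1 encode enzymes of the cytosol, and MDH2 encodes the matrix form of the latter. As an enzyme of the cytosol, ACO1 has only an indirect role in the cycle itself. It also binds iron-responsive elements in mRNA when it lacks its iron-sulfur cluster.

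Values are FPKM, fragments per length of transcript and per total of mapped fragments, so levels can be set beside each other between genes of different length. Unless stated otherwise they were scaled between the libraries of a tissue by a median ratio and are called scaled FPKM. Log2 changes and folds are deficient minus control on the scale of log2(scaled FPKM + 1). A gene was called at an adjusted p under 0.05 (limma, Benjamini-Hochberg over all genes tested). Reads per library are not known from the files. The depth estimated from coverage and transcript length was 1.40 to 2.75 gigabases per library, and between 9143 and 10589 genes reached an FPKM of 1.

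Several libraries stood apart. In liver control 1 the summed level of the 9 myocyte markers found was 449 scaled FPKM, against 11.8 to 25.2 in the deficient liver libraries, so that library held more RNA of muscle genes than the others. Mitochondrially encoded genes took 63.1% of the FPKM sum in liver control 4 and 36.1% in liver deficient 1, against 14.1% to 22.9% in the other 18 libraries. Counts of calls that involve liver are therefore also given without these 3 libraries, and so are some single values. The ratios of enzymes given further on were not run without these 3 together. Tissue markers went with the labels: the 21 hepatocyte markers found summed to between 33250 and 71555 scaled FPKM in liver and between 697 and 3199 in breast muscle, while the myocyte markers summed to at least 42407 in every breast library. ALB, the albumin gene, is listed at 0 in liver through failed estimates. It was not tested, and it entered the liver sums as 0.

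All 9 enzymes were measured in all 20 libraries, and none had a failed estimate. In breast muscle the deficient diet went with more RNA of most of the 9 enzymes. DLD, MDH2, SUCLG1, IDH3A, SUCLA2, FH and MDH1 rose, ACO1 fell, and CS did not pass the test. These 7 rises and 1 fall stand beside 14.2% of the 10173 genes tested called higher and 13.9% called lower, 28.1% in all. Since the 9 were chosen with earlier results of these data known, these counts describe them and do not test the cycle. The median log2 change of the 9 enzymes was 0.63 and that of all genes tested 0.02. In scaled FPKM, every deficient library lay above every control in 6 enzymes, which held for 8.9% of genes tested. Every deficient library lay below every control in 9.46% of genes, and in no enzyme of the 9. In liver no enzyme passed the test. In such bulk tissue, fewer cells of a type and less RNA per cell cannot be told apart.

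**Figure D1:**
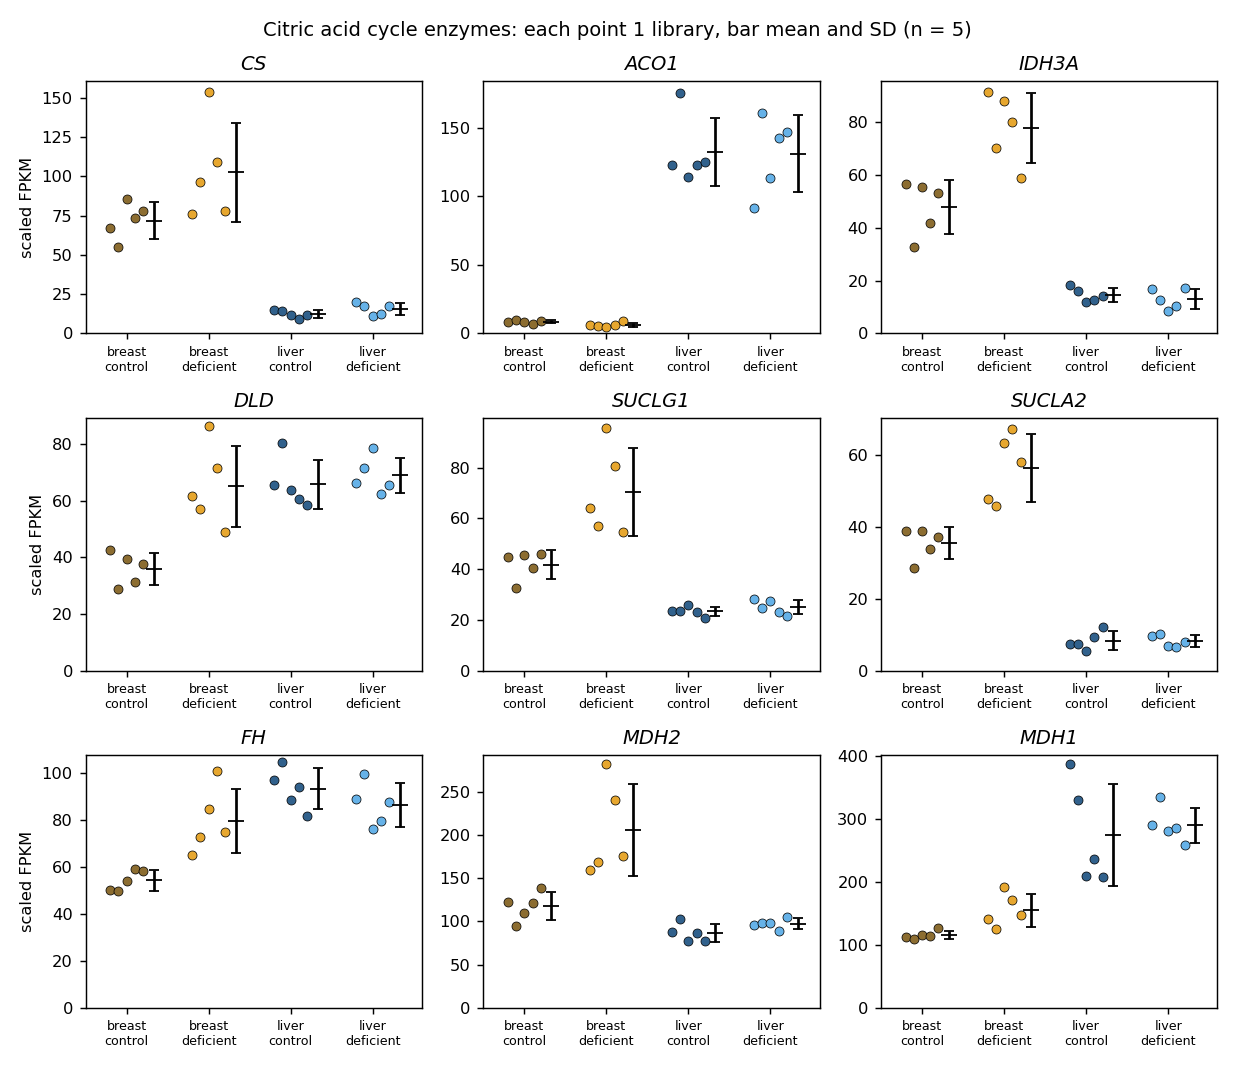
Level of each of the 9 enzymes in every library, as FPKM scaled over all 20 libraries together, on linear axes from 0. Points are libraries and bars give the mean and SD of 5. In breast muscle the deficient points lie above all control points for IDH3A, DLD, SUCLG1, SUCLA2, FH and MDH2, and ACO1 is far higher in liver than in breast muscle.

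The enzymes are described in turn for breast muscle, from the entry of the cycle on. CS (ENSGALG00000026880, on an unplaced scaffold of galGal4, 46166 to 49897) encodes citrate synthase, which joins acetyl-CoA to oxaloacetate. It stood at 68.0, 55.0, 87.2, 73.7 and 78.6 scaled FPKM in control libraries 1 to 5. Its deficient libraries 1 to 5 stood at 76.3, 95.1, 153, 108 and 77.8. Deficient library 3 was far above the rest, and libraries 1 and 5 lay within the control range. The log2 change of CS was 0.45 (SE 0.19, 95% interval 0.03 to 0.88), with an adjusted p of 0.101 by limma.

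ACO1 (ENSGALG00000002162, chromosome Z, 70787483 to 70824265), the cytosolic aconitase, went the other way. Control breast libraries 1 to 5 held 8.63, 9.77, 8.82, 7.28 and 8.97 scaled FPKM of it, and deficient libraries 6.07, 5.22, 4.38, 6.34 and 8.80. Deficient library 5 lay among the controls and the other 4 deficient libraries lay below them. ACO1 fell by 0.46 on the log2 scale (SE 0.14, 95% interval -0.78 to -0.14, 1.38-fold lower, limma adjusted p = 0.0363). That call ended when any of 8 of the 10 libraries was left out, all but breast control 4 and breast deficient 5, with adjusted p up to 0.0871. It also ended without a filter on low values and with the replicate number as a block (adjusted p up to 0.0602).

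IDH3A (ENSGALG00000003303, chromosome 10, 3278742 to 3288427) encodes the catalytic alpha subunit of the NAD-dependent isocitrate dehydrogenase of the matrix. Its levels were 57.3, 32.99, 56.3, 41.8 and 54.0 scaled FPKM in control breast libraries 1 to 5 and 91.9, 69.1, 87.9, 79.1 and 59.0 in deficient ones. The lowest deficient library, number 5, was just above the highest control, number 1. IDH3A rose by 0.68 on the log2 scale (SE 0.17, 95% interval 0.29 to 1.06, 1.60-fold, limma adjusted p = 0.0169). It was also the only enzyme of the 9 with more than 1 transcript in the files, and 1 of its 2 transcripts took 99.0% of its FPKM.

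DLD (ENSGALG00000007931, chromosome 1, 14666134 to 14679885) encodes dihydrolipoamide dehydrogenase, the lipoamide-reoxidising subunit that the oxoglutarate, pyruvate and branched-chain keto acid dehydrogenase complexes and the glycine cleavage system share. It had the largest log2 change among the 9 enzymes. Control breast libraries 1 to 5 stood at 43.1, 28.9, 40.1, 31.2 and 37.9 scaled FPKM and deficient ones at 61.9, 56.0, 86.0, 70.5 and 49.1. The groups did not overlap: the lowest deficient library, number 5, was above the highest control, number 1. DLD rose by 0.81 on the log2 scale (SE 0.16, 95% interval 0.45 to 1.16, 1.75-fold, limma adjusted p = 0.00575).

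Succinyl-CoA synthetase makes a nucleoside triphosphate while it splits succinyl-CoA, and is built of a shared alpha subunit, SUCLG1, and a beta subunit that sets the nucleotide, SUCLA2 for ATP or SUCLG2 for GTP. SUCLG1 (ENSGALG00000015961, chromosome 4, 85721719 to 85737210) stood at 45.2, 32.6, 46.3, 40.4 and 46.5 scaled FPKM in control breast libraries 1 to 5 and at 64.4, 56.0, 95.5, 79.6 and 54.5 in deficient ones. It rose by 0.70 (SE 0.17, 95% interval 0.33 to 1.06, 1.62-fold, limma adjusted p = 0.0125). As for DLD, deficient library 3 was highest and library 5 lowest, and no deficient library fell into the control range.

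SUCLA2 (ENSGALG00000016993, chromosome 1, 167942415 to 167962710) had control breast levels of 39.4, 28.6, 39.5, 34.1 and 37.7 scaled FPKM and deficient levels of 48.0, 45.2, 63.3, 66.4 and 58.0. Here deficient libraries 4 and 3 were high and libraries 1 and 2 low, again with no overlap. The log2 rise was 0.63 (SE 0.13, 95% interval 0.33 to 0.92, 1.55-fold, limma adjusted p = 0.00768). SUCLG2, which is not one of the 9, had a log2 change of -0.13 (SE 0.12, limma adjusted p = 0.438) at a mean of 5.99 scaled FPKM in control and 5.43 in deficient breast muscle.

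FH (ENSGALG00000013165, chromosome 2, 85666852 to 85681240) encodes fumarase, which hydrates fumarate to malate. In control breast libraries 1 to 5 it stood at 50.5, 49.95, 55.1, 59.3 and 58.8 scaled FPKM, a narrow range, and in deficient libraries at 65.2, 71.4, 84.2, 99.5 and 74.8. Every deficient library exceeded every control, and library 4 was highest. FH rose by 0.51 on the log2 scale (SE 0.12, 95% interval 0.25 to 0.77, 1.42-fold, limma adjusted p = 0.0113).

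MDH2 (ENSGALG00000001949, chromosome 19, 4285318 to 4293888), the matrix malate dehydrogenase that closes the cycle by remaking oxaloacetate, had the highest mean of the 9 in breast muscle on both diets, on the control diet level with MDH1 within the spread. Its levels were 124, 95.3, 112, 122 and 140 scaled FPKM in control libraries 1 to 5 and 161, 167, 281, 238 and 175 in deficient ones. Deficient libraries 3 and 4 stood well above the other 3, and all 5 stood above the controls. MDH2 rose by 0.76 (SE 0.17, 95% interval 0.38 to 1.13, 1.69-fold, limma adjusted p = 0.0101).

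MDH1 (ENSGALG00000008858, chromosome 3, 9406399 to 9417141), the cytosolic malate dehydrogenase of the malate-aspartate shuttle, changed least among the enzymes that rose. Control breast libraries held 113, 109, 119, 115 and 128 scaled FPKM and deficient ones 142, 123, 191, 170 and 147. Deficient library 2, at 123, lay below control library 5, at 128, and the other deficient libraries lay above all controls. The log2 rise was 0.39 (SE 0.12, 95% interval 0.12 to 0.65, 1.31-fold, limma adjusted p = 0.0352). This call ended when any of 6 libraries was left out, namely breast control 1 to 4 and breast deficient 3 and 4 (adjusted p up to 0.0813), under the other 3 scalings, and with the replicate number as a block.

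Scaling bears on the size of these changes. With FPKM left unscaled, the median log2 change of all breast genes was -0.25 in place of 0.02, and 9.14% of the called genes were higher in place of 50.5%. The direction of all 9 enzymes in breast muscle was the same under each of the 4 scalings. Unscaled, DLD (log2 change 0.48), MDH2 (0.42), SUCLG1 (0.37) and ACO1 passed the test, while MDH1 had a log2 change of 0.06. The separation of the diets also depended on scaling. In unscaled FPKM only MDH2 kept all deficient libraries above all controls (from 150, against up to 144). The diets then overlapped for IDH3A, DLD, SUCLG1, SUCLA2 and FH. Unscaled DLD, for example, reached 49.3 in controls and began at 48.8 in deficient libraries.

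**Figure D2:**
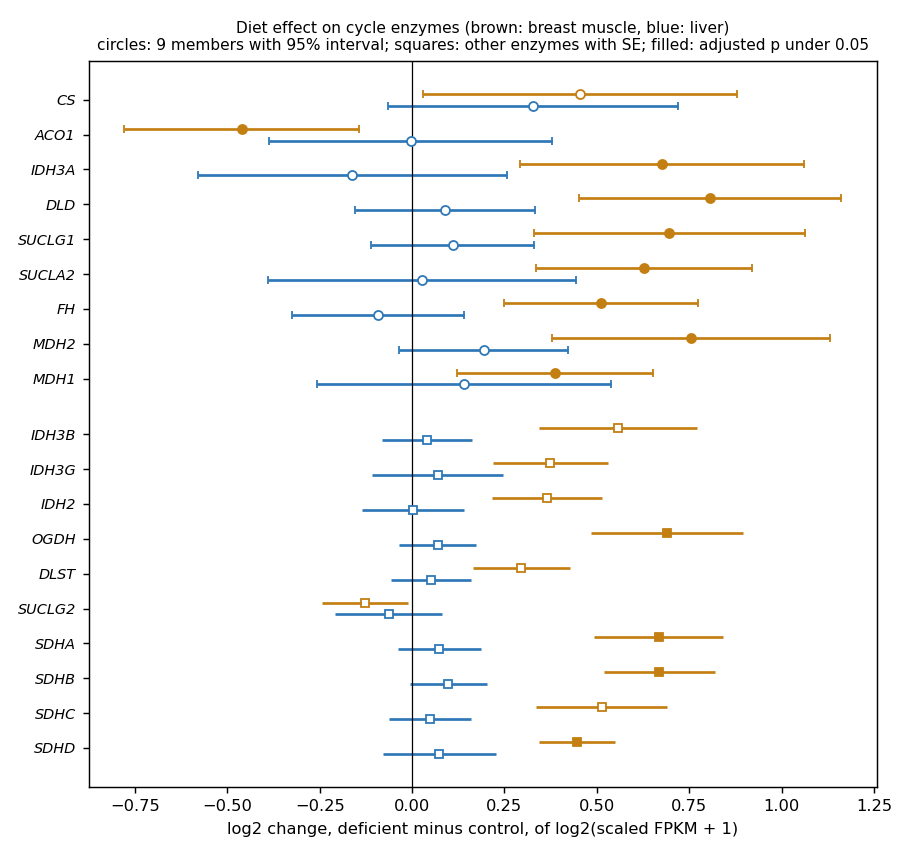
Log2 change, deficient minus control, for the 9 enzymes (circles, bars are 95% intervals) and 10 other cycle enzymes (squares, bars are the SE) in breast muscle (brown) and liver (blue), with filled symbols at an adjusted p under 0.05. Among the 9 enzymes, 8 brown symbols are filled, 7 to the right of 0 and ACO1 to the left, and no blue symbol is filled.

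In scaled FPKM, the same libraries were high or low for most enzymes. Breast control 2 was the lowest control for 8 of the 9, all but ACO1, for which it was the highest. Breast deficient 3 was the highest deficient library for CS, DLD, MDH1, MDH2 and SUCLG1 and the lowest for ACO1. These ranks are of scaled FPKM and depend in part on the scaling. It lowered all values of breast control 2 (summed myocyte markers 54108 FPKM before, 42407 after). It raised those of breast deficient 3 (40482 before, 52424 after). In unscaled FPKM breast control 2 was the lowest control only for CS, IDH3A, SUCLA2 and SUCLG1. It was then the highest control for MDH1, at 139 FPKM, and still for ACO1. Breast deficient 3 kept the ranks named above. Over the 36 pairs of enzymes, the median Pearson r of the log2 levels was 0.85 across the 10 breast libraries and 0.69 after subtraction of the diet means, with 28 pairs above 0. The 8 pairs below 0 were those of ACO1 with each other enzyme, from -0.67 with CS to -0.01 with SUCLA2. The closest pair was DLD with SUCLG1, at 0.94 after that subtraction. These values describe 10 libraries that share their scaling, and no test was made of them. In liver the corresponding medians were 0.21 and 0.30.

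**Figure D3:**
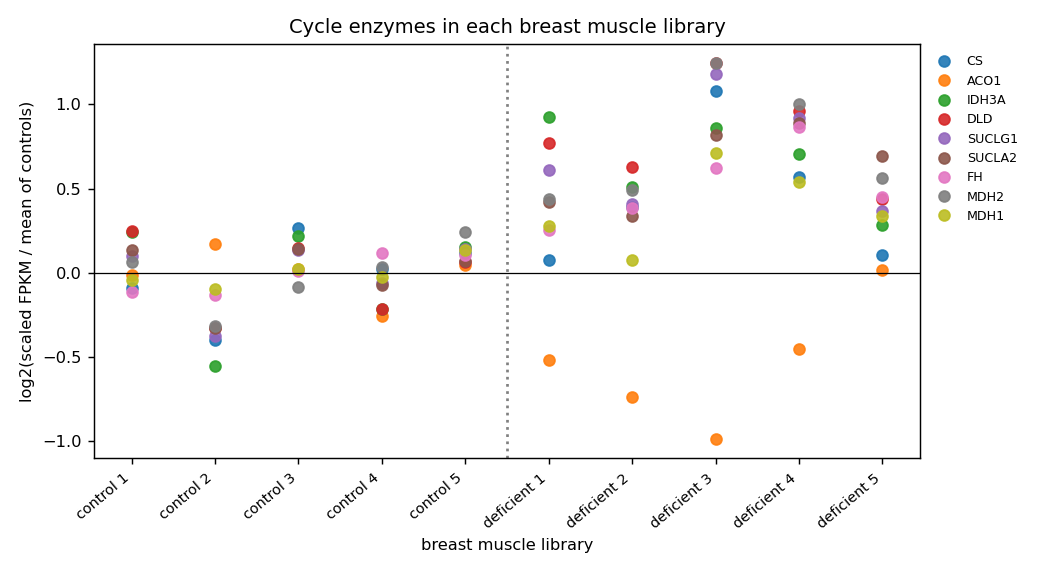
Each enzyme in each breast muscle library, as the log2 of its scaled FPKM over the mean of the 5 controls, with a dotted line between the diets. In deficient library 3 MDH2 and DLD lie highest and ACO1 lowest. In control library 2 ACO1 lies above 0 and the other 8 enzymes lie below 0.

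Breast control 2 and breast deficient 3 also stood at the ends of other measures. The 15 macrophage markers summed to 2557 scaled FPKM in breast control 2, the highest control, and to 1179 in breast deficient 3, the lowest of all breast libraries. The 9 myocyte markers summed to 42407 in breast control 2, the lowest control, and to 52424 in breast deficient 3, the lowest deficient library. That sum includes a marker with a failed estimate in breast muscle. Breast deficient 3 also had the fewest genes at an FPKM of 1, with 9143. That number was lower in each deficient breast library, at 9143 to 9962, than in any control one, at 10102 to 10589. The part of these differences in the levels of the enzymes was not tested.

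Markers of other cell types moved with diet in breast muscle. Summed levels are of all markers found, tested or not. Of the 15 macrophage markers tested, 13 fell and none rose, and their summed level was 2080 to 2557 scaled FPKM in control and 1179 to 1333 in deficient libraries. All 15 were above a mean of 1 scaled FPKM in both diets. Of 8 heterophil markers 6 fell (summed level 78.9 to 139 against 18.3 to 43.4), of 9 lymphocyte markers 6 fell (83.5 to 123 against 44.4 to 70.0), and of 10 fibroblast markers 4 fell (1963 to 2599 against 1215 to 1990). Of 6 hepatocyte markers tested 3 fell and none rose (summed level of all 21 found 1893 to 3199 against 697 to 2616). Of 10 endothelial markers 1 fell, of 7 adipocyte markers 1 fell, and of 4 erythroid markers none was called or had an unadjusted p under 0.05. Of 8 myocyte markers tested 5 rose and 1 fell. The summed level of all 9 found was 42407 to 73990 in control and 52424 to 109417 in deficient libraries. The marker not tested had a failed estimate and is part of that sum. Of 9 slow fibre markers 1 rose and 6 fell, although the sum ranged from 3189 to 7206 in control and 4690 to 11555 in deficient libraries. The part of these shifts in the rises of the 7 enzymes and the fall of ACO1 was not tested.

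Ratios of 2 enzymes within a library need no scaling between libraries. The ratio of MDH2 to MDH1, matrix to cytosolic malate dehydrogenase, was 1.10, 0.874, 0.945, 1.06 and 1.09 in control breast libraries 1 to 5 and 1.14, 1.35, 1.47, 1.40 and 1.19 in deficient ones. The groups did not overlap, and the geometric mean went from 1.01 to 1.30. The ratio was thus 1.29-fold higher, a log2 difference of 0.37 (exact permutation p = 0.00794, two-sided, the smallest that 5 against 5 libraries allow, adjusted p = 0.0159 over 4 diet comparisons).

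SUCLA2 over SUCLG2, the ATP-forming over the GTP-forming beta subunit, was 6.09, 4.55, 5.93, 6.16 and 7.58 in control breast libraries and 9.05, 10.1, 11.8, 13.9 and 8.05 in deficient ones. All 5 deficient ratios exceeded all control ratios. The geometric mean went from 5.98 to 10.4, 1.73-fold higher (exact permutation p = 0.00794, adjusted p = 0.0159).

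Both ratios overlapped between diets in liver. The log2 differences there were 0.05 for MDH2 over MDH1 and 0.10 for SUCLA2 over SUCLG2, each with an adjusted p of 0.794 by exact permutation. Their signs rested on single libraries: the first changed sign without liver control 1 or liver deficient 5 and the second without liver control 3.

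**Figure D4:**
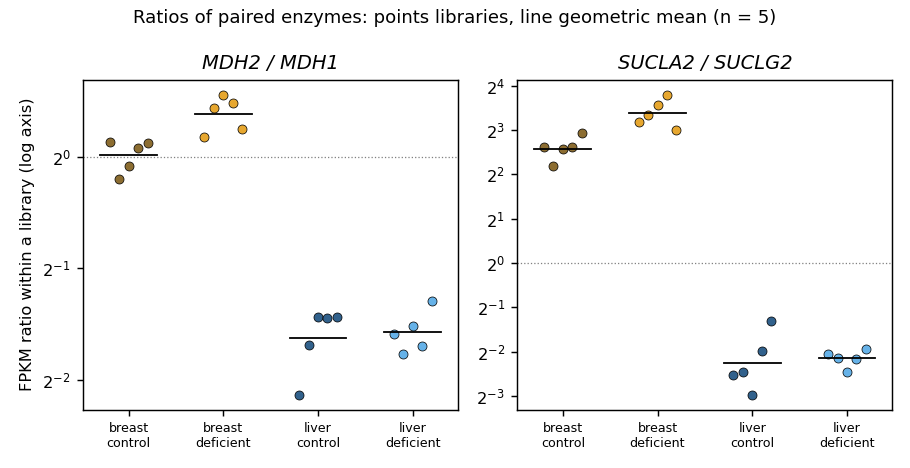
FPKM ratios within each library for MDH2 over MDH1 and SUCLA2 over SUCLG2, on a log axis in powers of 2, with points for libraries and lines for the geometric mean of 5. In breast muscle the deficient points lie above all controls in both panels, and in liver the diets overlap.

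The rest of the cycle and its supply were read from lists of genes. Of 10 other cycle enzymes tested in breast muscle, 4 rose and none fell, with a median log2 change of 0.48. These were SDHB (0.67), SDHD (0.45) and SDHA (0.67), subunits of succinate dehydrogenase, the membrane-bound enzyme shared with the respiratory chain, and OGDH (0.69), the first subunit of the oxoglutarate dehydrogenase complex. The remaining succinate dehydrogenase subunit, SDHC, had a log2 change of 0.51 at a limma adjusted p of 0.0511. IDH3B and IDH3G, the partner subunits of IDH3A, had log2 changes of 0.56 and 0.37 and did not pass the test (limma adjusted p = 0.0724 and 0.0956).

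Of 11 genes of the pyruvate dehydrogenase complex, its regulators and the pyruvate carrier, 6 rose and none fell in breast muscle (median 0.45). They included the binding protein PDHX (0.62), the acetyltransferase DLAT (0.45), the kinase PDK3 (0.55) and the phosphatase PDP1 (0.86), so both an inhibiting kinase and an activating phosphatase of the complex were among them. Of 14 anaplerotic and exchange genes 5 rose and 2 fell (median 0.19). The aspartate-glutamate carrier SLC25A12 (1.13) and the aspartate aminotransferase GOT1 (0.85), which work with MDH1 and MDH2 in the malate-aspartate shuttle, rose, as did malic enzyme ME1 (0.59). ACL, the ATP citrate lyase of the cytosol, fell by 0.59.

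Of 12 genes listed under lipoate attachment and iron-sulfur assembly, 4 rose and none fell (median 0.20), namely ISCU (0.49), IREB2 (0.27), LIAS (0.30) and NFU1 (0.41). These functions serve DLD's partner subunits and the iron-sulfur cluster of ACO1. IREB2 was listed as the iron regulatory protein related to ACO1, not as an assembly gene. Of 55 nuclear genes of the respiratory chain and ATP synthase 41 rose and 1, COX8A, fell (median 0.49), with NDUFB3 (0.75), NDUFA8 (0.69), NDUFS6 (0.63) and NDUFA4 (0.71) among the rises. Of 27 genes of mitochondrial mass and biogenesis 7 rose and none fell (median 0.20), with SLC25A4, the adenine nucleotide carrier, at 1.16, IMMT at 0.83, HSPA9 at 0.69 and MFN1 at 0.57. In each of these 6 lists the share of rises was above the 14.2% of all genes, from 7 of 27 to 41 of 55. With a filter at a mean scaled FPKM of 5, 2078 of 6035 breast genes were called, 63.1% of them higher. The lists were not compared with the share of rises under that filter.

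In liver the diet comparison showed small values for the same 9 enzymes. None passed the test, none was at an unadjusted p under 0.05, and the smallest adjusted p was 0.676 (limma). Over all 10185 genes tested the share called was 0%, with 849 genes (8.34%) at an unadjusted p under 0.05. The log2 changes ran from -0.16 for IDH3A (95% interval -0.58 to 0.26) to 0.33 for CS (-0.06 to 0.72), with a median of 0.09. For each of the 9 the diets overlapped, against 1.87% of genes without overlap. In the 6 other lists of the cycle and of mitochondrial genes, limma called none either, and between 0 and 4 genes of each list were at an unadjusted p under 0.05.

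The liver values of DLD and FH show this. DLD stood at 64.3, 78.4, 63.4, 59.7 and 58.6 scaled FPKM in control liver libraries 1 to 5 and at 65.97, 71.2, 79.2, 63.1 and 65.4 in deficient ones. FH stood at 94.9, 102, 87.9, 92.8 and 81.7 in control and at 88.8, 98.9, 76.4, 80.1 and 87.2 in deficient libraries. In both genes the ranges of the diets lay largely on top of each other. The log2 change was 0.09 for DLD (95% interval -0.15 to 0.33) and -0.09 for FH (95% interval -0.32 to 0.14).

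MDH1 was the most abundant of the 9 in liver, and its control libraries spread widely, at 380, 324, 208, 234 and 209 scaled FPKM, against 290, 334, 283, 289 and 259 on the deficient diet. Its highest control was liver control 1, a library that stood apart, and liver control 2 was next. ACO1 had 120, 172, 114, 122 and 126 in control and 91.6, 160, 114, 144 and 146 in deficient liver. Liver control 2 was far above the other controls, and the deficient libraries lay on both sides of them. The log2 change of ACO1 in liver was -0.00416 (95% interval -0.39 to 0.38), and its sign depended on the scaling.

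The difference of the diet effects, liver minus breast muscle, was tested directly. It was called for FH (-0.60, SE 0.15, 95% interval -0.92 to -0.28, limma adjusted p = 0.0201) and DLD (-0.72, SE 0.20, 95% interval -1.13 to -0.31, limma adjusted p = 0.0287). These 2 of 9 stand beside 9.22% of 9142 genes called, with 3.98% in that direction and 5.24% in the other. The other 7 did not pass: IDH3A at -0.84 (adjusted p = 0.0535), SUCLG1 at -0.59 (0.0660), MDH2 at -0.56 (0.0816), SUCLA2 at -0.60 (0.118), ACO1 at 0.46 (0.222), MDH1 at -0.25 (0.513) and CS at -0.13 (0.818), all by limma. For CS the 95% interval was -0.69 to 0.44 and for MDH1 -0.70 to 0.20, and both changed sign without scaling. Both calls ended without the 3 liver libraries that stood apart (adjusted p = 0.0778 for DLD and 0.0747 for FH, at -0.74 and -0.59), without scaling and under quantile normalization. With same-numbered breast and liver libraries of a diet as blocks, the FH call ended (adjusted p = 0.0641) and DLD passed (adjusted p = 0.0416). The DLD call also ended when any of 5 libraries was left out, namely breast control 2, breast control 4, breast deficient 4, liver control 2 or liver deficient 4 (adjusted p up to 0.0626).

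Most of the 9 enzymes differed between the tissues, in both directions, as did most genes tested. For these comparisons FPKM were scaled over all 20 libraries together. On the control diet all 9 enzymes differed between the tissues, 4 higher in liver (35.7% of 10771 genes) and 5 lower in liver (33.7%), so a call in either direction was common, at 69.5% of all genes. All but MDH2 were without overlap, 4 above and 4 below, as were 58% of genes (29.8% above, 28.2% below). On the deficient diet 7 were called, 2 higher in liver (37.3% of genes) and 5 lower (36.2%), against 73.5% in either direction. The same 7 were without overlap, 2 above and 5 below, against 58.2% of genes (29.4% above, 28.7% below).

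ACO1 showed the largest tissue difference of the 9. It was at 132 ± 24.6 in control liver and 8.61 ± 0.893 in control breast muscle (SD, n = 5 each), a log2 difference of 3.78 (95% interval 3.44 to 4.12, 13.7-fold, limma adjusted p = 5.28e-14). On the deficient diet the levels were 131 ± 28.0 and 6.19 ± 1.65 (SD, n = 5 each), 18.4-fold apart. MDH1 was also higher in liver, at 275 ± 80.6 against 116 ± 6.82 on the control diet (SD, n = 5 each, log2 difference 1.20, limma adjusted p = 1.01e-06) and by 0.91 on the deficient diet. ACO1 and MDH1 were thus higher in liver on both diets. DLD (0.86) and FH (0.77) were also higher in liver on the control diet.

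CS, SUCLA2 and IDH3A had the largest differences towards breast muscle. CS was at 71.8 ± 11.6 in control breast muscle and 12.2 ± 2.38 in control liver (SD, n = 5 each), 5.51-fold lower in liver (limma adjusted p = 8.01e-10). SUCLA2 was 3.98-fold and IDH3A 3.10-fold lower in liver on the control diet, and 6.19-fold and 5.68-fold lower on the deficient diet. SUCLG1 was lower in liver by 0.81 on the log2 scale on the control diet and by 1.43 on the deficient diet. MDH2 had the smallest difference, -0.43 on the control diet (limma adjusted p = 0.0110), with control liver libraries of 76.9 to 103 and control breast libraries of 95.01 to 138, and -1.04 on the deficient diet.

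DLD and FH passed the test between tissues on the control diet and not on the deficient diet. On the control diet DLD was higher in liver by 0.86 (95% interval 0.57 to 1.15) and FH by 0.77 (0.54 to 1.00), with no overlap of libraries. On the deficient diet the differences were 0.10 for DLD (95% interval -0.19 to 0.39, limma adjusted p = 0.516) and 0.13 for FH (-0.11 to 0.36, limma adjusted p = 0.314). Deficient breast libraries of DLD then ranged from 49.0 to 86.2 and deficient liver libraries from 62.5 to 78.5. Those of FH ranged from 64.9 to 101 in breast muscle and from 75.8 to 99.4 in liver. Without scaling both passed on the deficient diet too, at 0.30 for DLD (limma adjusted p = 0.0260) and 0.32 for FH (limma adjusted p = 0.00338). The counts of calls, 9 and 7, were also 9 and 7 without the 3 liver libraries that stood apart.

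**Figure D5:**
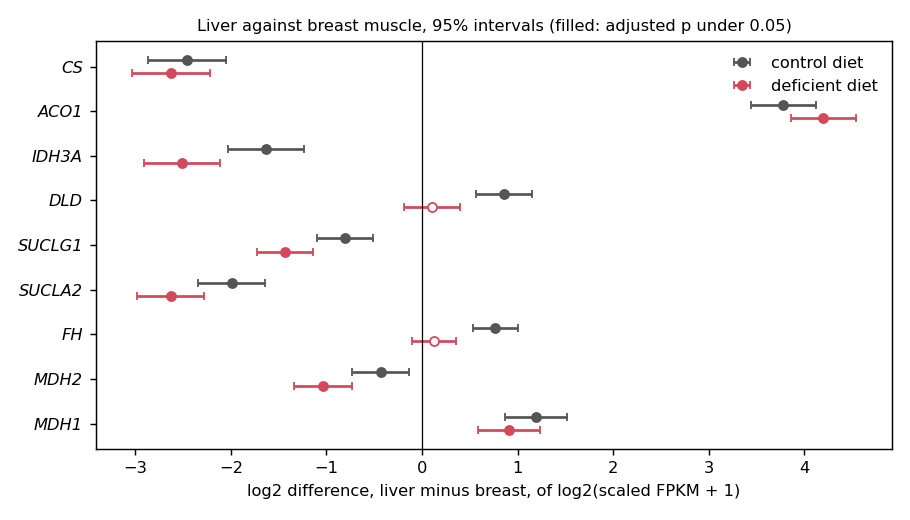
Log2 difference, liver minus breast muscle, of each enzyme on the control diet (grey) and the deficient diet (red), with 95% intervals and filled symbols at an adjusted p under 0.05. ACO1 lies near 4, CS, SUCLA2 and IDH3A lie lowest, and the open red symbols of DLD and FH lie near 0.

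The order of the 4 groups by mean level fell into a few patterns. CS, MDH2 and SUCLG1 ran from deficient breast muscle through control breast muscle and deficient liver to control liver, and IDH3A and SUCLA2 did so with the 2 liver groups exchanged. DLD and MDH1 ran from deficient liver through control liver and deficient breast muscle to control breast muscle, and FH did so with the liver groups exchanged. ACO1 alone had control breast muscle above deficient breast muscle. The liver groups overlapped as neighbours in all 9, the breast groups did so in CS, ACO1 and MDH1, and a breast group overlapped with its liver neighbour in DLD, FH and MDH2. The ratio of the highest to the lowest group mean was 21.4 for ACO1, 8.38 for CS, 6.81 for SUCLA2 and 5.93 for IDH3A, and it was smallest for FH, at 1.72.

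The make-up of the 9 enzymes' summed FPKM differed accordingly. MDH1 and MDH2 took 22.0% and 22.2% of it in control breast muscle, and 38.1% and 12.3% in control liver. ACO1 took 1.65% in control breast muscle, 0.793% in deficient breast muscle and 18.7% in control liver, each a mean of 5 libraries. CS took 13.5% in control breast muscle and 1.73% in control liver.

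The paired ratios separated the tissues completely. On the control diet SUCLA2 over SUCLG2 was 0.210 in liver and 5.98 in breast muscle as geometric means, 28.5-fold lower in liver. The libraries ranged from 0.127 to 0.402 in control liver and from 4.55 to 7.58 in control breast muscle. RNA of the GTP-forming beta subunit was thus the more abundant in each of the 5 control liver libraries. RNA of the ATP-forming one was the more abundant in each of the 5 control breast libraries. On the deficient diet the ratio was 46.1-fold lower in liver, at 0.225 against 10.4. MDH2 over MDH1 was 0.323 against 1.01 on the control diet and 0.336 against 1.30 on the deficient diet. Each of these 4 tissue comparisons had an exact permutation p and adjusted p of 0.00794, the smallest possible. That test took breast and liver libraries as independent, and no version paired by bird was run.

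The genes most like each enzyme across the 10 breast libraries were listed by Pearson correlation of log2 levels, as a description of libraries that share their diets and scaling. CS was most like SDHC (r = 0.978), whose product also works in the cycle, followed closely by MRPS14 (0.975) and OSBP (0.974). MDH1 was most like MRPL14 (0.981), a mitochondrial ribosomal protein, followed by IDH3B (0.977) and NDUFS4 (0.976). SUCLG1 had UQCRFS1 (0.991), PRDX3 (0.991) and PEX10 (0.990). MDH2 had MCTS1, CWC15 and UQCR10 (0.988 to 0.990), and FH had ATP5G2 (0.968), NDUFB5 (0.958) and SLC16A9 (0.956).

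DLD was most like MEMO1, ABCA5 and GNPAT (0.984 to 0.986), IDH3A was most like VPS37A, PHKB and LARP1B (0.978 to 0.981), and SUCLA2 was most like DDO, PPIF and PANK4 (0.980 to 0.989). ACO1 stood next to GPR65 (0.961), EVI2A (0.959) and ELF1 (0.953). GPR65 and EVI2A are known from leukocytes, and GPR65 fell by 1.15 on the log2 scale in deficient breast muscle. In liver the closest genes differed, with IMMT for DLD (0.926), GOT1 for MDH2 (0.918), MRPL14 for SUCLG1 (0.931) and ABCC6 for ACO1 (0.928), again over 10 libraries. The closest were SYTL4 for CS (0.910), GDI2 for IDH3A (0.891) and CIB1 for MDH1 (0.924). For SUCLA2 it was CTPS1 (0.910) and for FH it was MMP15 (0.923).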

How the data were processed

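Each library has deposited FPKM per gene and per isoform in Cufflinks tracking format. Cuffdiff 2.1.1, Cufflinks 2.1.1, TopHat2 2.0.9 and Bowtie 1.0.0 were used with galGal4, in roles not given, per the submitters' processing notes. RNA was extracted with Trizol and libraries came from an Illumina TruSeq kit, per the labels. Coverage, a signal of mean read depth per transcript per the file headers of the isoform tables, served with transcript length to estimate depth. Low FPKM values showed no whole-read steps, so reads per library are unknown and no count test was run.

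Libraries were scaled by their median ratio to a reference, the geometric mean of each gene, using genes above 0 throughout, within a tissue for diet and over 20 libraries for tissue. Genes averaging 1 scaled FPKM or more were tested on log2(scaled FPKM + 1), two-sided, with limma 3.58.1 (mean-variance trend) under R 4.3.3. Diet was the only term within a tissue, and a fit over the 4 group means gave the tissue comparisons. Genes with a failed estimate (3 in breast muscle, 1 in liver) were left out of the tests but not of the marker sums. Ratios were compared by exact permutation of all labelings, two-sided.

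The members and gene lists were chosen with earlier results of these data known. Of 316 list entries 260 were found by symbol, 9 of them by an alternative symbol. All 9 enzymes are named, with up to 4 called genes of smallest p per list and, in breast muscle, the 3 most correlated genes per enzyme. In liver only the closest gene of each enzyme is named. SDHC, IDH3B, IDH3G, SUCLG2 and COX8A were also named, after their values were seen. Starts were deposited from 0 and are printed from 1. Alternatives were other scalings, pseudocounts, filters, variance models, isoform values, library weights, a replicate block and leaving out libraries. Leaving out 3 liver libraries together and a block across tissues were added after the data were seen. Fits were tested on simulated data. Sequences and promoter motifs were not used here, and 1 planned ratio is not reported here.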

Additional observations from a re-analysis of the deposited data

Results flagged for a closer look

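The diet effect differed between liver and breast muscle for DLD, by -0.72 on the log2 scale (limma adjusted p = 0.0287), and for FH, by -0.60 (limma adjusted p = 0.0201), in a direct test of the difference over 20 libraries. Neither passed without scaling, under quantile normalization or without the 3 liver libraries that stood apart. DLD did not pass in 5 of the 20 fits that left out 1 library, nor FH with blocks across tissues (adjusted p = 0.0641). In scaled FPKM every deficient breast library was above every control breast library in both genes, while the liver libraries of the diets overlapped. Without scaling the breast libraries of the diets overlapped too. Controls then reached 49.3 for DLD and 67.4 for FH, and deficient libraries began at 48.8 and 64.4.

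Liver control 2 stood far from the other control livers for ACO1, at 172 scaled FPKM, and for DLD, at 78.4 scaled FPKM. In each case its gap to the nearest library was 0.794 and 0.712 of the range of the group, above the critical value of 0.71 for 5 libraries. Of 44 groups of libraries examined in this way 2 stood out, and chance flags about 1 in 20 groups.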

How the results depend on the processing

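Of the 9 enzymes, 8 passed the test in breast muscle and 6 to 8 did when any 1 library was left out, against 4 without scaling. In liver 0 of the 9 passed under every alternative run and with each library left out (0 to 0). Over all liver genes, 2 passed with no filter, 1 with a filter at 5 and 2 as isoforms. Leaving out liver control 3 gave 11 genes. Leaving out liver control 2, liver control 5 or liver deficient 3 gave 1 each. The difference between the tissues' diet effects was called for 2 enzymes, for 1 to 4 with a library left out, for 1 without scaling (ACO1, higher), and for 0 under quantile normalization or without the 3 liver libraries that stood apart. Between tissues, 9 enzymes were called on the control diet and 7 on the deficient diet with any library left out (9 to 9 and 7 to 7), and 9 on the deficient diet without scaling, where DLD and FH were added. Without scaling the share of called breast genes that were higher was 9.14%, with upper-quartile scaling 36.5% and with a filter at 5 63.1%, against 50.5%. In breast muscle IDH3A was no longer called without scaling and under quantile normalization, and SUCLA2 and FH without scaling.

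Values near 0 changed sign. ACO1 in liver was 0.0438 without scaling, 0.00366 with upper-quartile scaling, 0.0162 under quantile normalization, 0.0548 without the 3 libraries and -0.0810 to 0.117 with 1 library left out. SUCLA2 in liver was -0.00433 with library weights, -0.00301 without the 3 libraries and -0.0931 to 0.17 with 1 left out. For the diet effect in liver minus that in breast muscle CS was 0.25 without scaling, 0.0750 under quantile normalization and -0.23 to 0.0259 with 1 left out, and MDH1 was 0.13 without scaling. The liver ratio differences ran from -0.0726 to 0.103 (MDH2 over MDH1) and -0.0818 to 0.332 (SUCLA2 over SUCLG2) with 1 library left out. The cause was not tested.

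Same-numbered libraries of the 2 diets correlated between -0.198 and 0.091 in their deviations from group means, and those of the 2 tissues between 0.00440 and 0.164, the highest being the own number in 4 of 5 pairs on each diet. Since not every correlation was over 0.1, the replicate block was kept as an alternative. Whether the numbers mark birds across tissues is not settled. With the replicate block 6 enzymes were called in breast muscle, 0 in liver, 3 for the difference and 9 and 7 between tissues, and the block called 2076 breast genes in place of 2854 and 552 in place of 843 for the difference. That block for the difference joined the diets. A replicate block joining the tissues instead, added after the data were seen, called 1 enzyme (DLD) and 787 genes. Depth as read counts is unknown, so no limit of detection was given.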
